A study of Mus musculus with 12 samples.

Results

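The liver switches to burning fatty acids in fasting and exports part of the product as ketone bodies. This account follows 7 genes of that response through the livers of mice in which the lncRNA mGULL was knocked down and the human lncRNA hGULL was added back. Acat1 and Bdh1 encode mitochondrial enzymes of ketone body metabolism, Slc16a1 encodes the monocarboxylate transporter MCT1, Ppara encodes the nuclear receptor that drives the hepatic fasting program, Fgf21 and Angptl4 encode secreted factors, and Pdk4 encodes a kinase that shuts off pyruvate dehydrogenase. They were taken by gene name from a table of 55385 features, each name matched 1 row, and all 7 belong to the 16378 tested genes, those averaging 1 TPM or more (TPM are transcript levels per length, scaled to the same total in each library).

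RNA-Seq was made from the livers of 12 male C57BL6 mice, 7 weeks old, each given adenovirus at a total of 500000000 plaque-forming units and killed after 7 days. The 4 control mice (GULL_control) received the Lac and pAdV5 viruses, the 4 knockdown mice (mGULL_knockdown) received the sh-mGULL and pAdV5 viruses, and the 4 rescue mice (hGULL_rescue) received the Ad-shmGULL and Ad-hGULL viruses, so that every mouse, the controls included, carried an adenoviral load. The comparisons ask what loss of mGULL does to hepatic gene expression and whether the human lncRNA alters it. The feeding state and hour of killing of these mice are not given in the sources used here, the injection route is given as intravitreal in one place and retro-orbital in another, and the level of mGULL itself was not analysed here.

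As background, fatty acids released by adipose tissue activate PPARα in the hepatocyte, which as a heterodimer with RXRα raises the genes of fatty acid oxidation. Acetyl-CoA from that oxidation is turned into acetoacetate, in steps that begin with a thiolase, and Bdh1 reduces acetoacetate to β-hydroxybutyrate. Fgf21, Pdk4 and Angptl4 are textbook PPARα targets: Fgf21 is a hepatokine of fasting and of other stresses, Pdk4 spares pyruvate by phosphorylating pyruvate dehydrogenase, and Angptl4 inhibits lipoprotein lipase.

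Each library sums to 1000000 TPM, so the sequencing depth is unknown, and between 15525 and 16929 genes lie above 1 TPM in a mouse. All 37 mitochondrially encoded features are listed at 0, and the values are therefore relative to nuclear transcripts. The hepatocyte markers, led by Alb, summed to 80100 to 124000 TPM in every mouse, with 2 of 9 lower after knockdown and 1 lower in rescue against control at the threshold used below. Of the adipocyte markers, Lep was listed at 0 in all 12 mice, Adipoq did not exceed 0.215 TPM and Plin1 did not exceed 0.138 TPM, while Cfd reached 37.9 TPM in knockdown replicate 3. The 8 muscle markers summed to 0.372 to 5.04 TPM, with the highest sum in control replicate 1. The 8 endothelial markers summed to 132 to 228 TPM in the controls and to 217 to 294 TPM after knockdown, with 2 of the 8 higher at that threshold. After knockdown 1 of 10 Kupffer cell markers was lower, as in rescue against control, and 1 of 4 tested cholangiocyte markers was higher. In rescue against knockdown 1 of 10 T and NK cell markers was higher, and in rescue against control 1 of 8 stellate cell and fibroblast markers. The part of these marker changes in the results was not tested. Over all tested genes 5.35% were higher and 2.3% lower after knockdown at that threshold. The shares were 2.33% and 0.672% in rescue against knockdown, and 6.84% and 0.641% in rescue against control. In bulk liver, fewer cells of a type and less RNA per cell cannot be told apart.

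The members span a wide range of levels per transcript length. In the controls Acat1 was highest at 244.0 ± 37.6 TPM (mean ± SD, n = 4), followed by Ppara at 212 ± 11.8 TPM, Angptl4 at 147 ± 12.5 TPM, Bdh1 at 124 ± 12.8 TPM, Slc16a1 at 33.0 ± 4.73 TPM, Pdk4 at 6.47 ± 2.67 TPM and Fgf21 at 4.72 ± 1.66 TPM. The ranges of neighbours in that order overlapped for Acat1 and Ppara, for Angptl4 and Bdh1, and for Pdk4 and Fgf21. The inducible genes Pdk4 and Fgf21 were the lowest members, and their values spread most between mice relative to the mean.

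**Figure D1:**
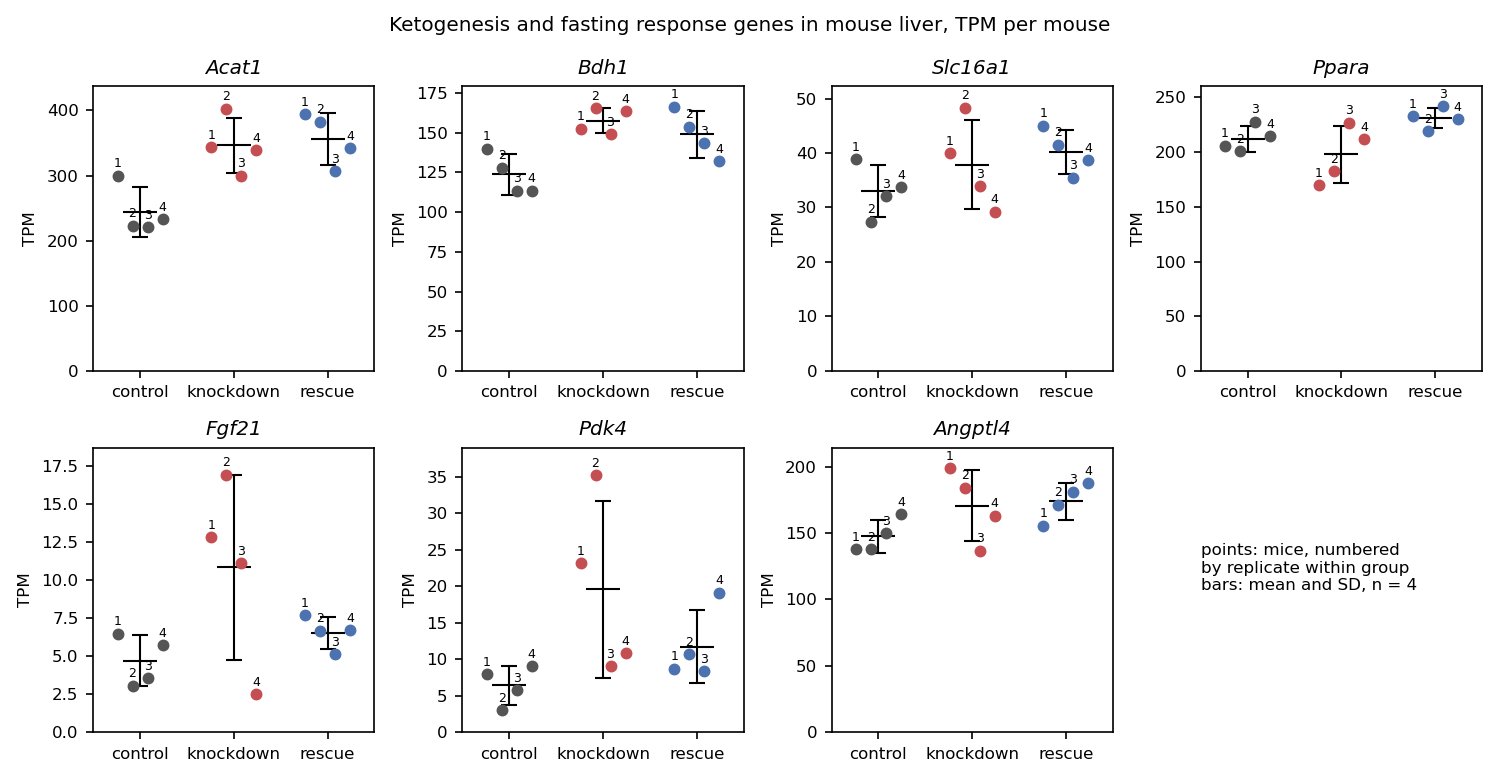
TPM of each member (y axis, linear from 0) in each of the 12 livers, grouped as control, knockdown and rescue on the x axis, with points numbered by replicate and bars showing mean and SD (n = 4). Bdh1 in the 4 knockdown mice (149 to 165 TPM) and Acat1 in the 4 rescue mice (307 to 394 TPM) sit above every control, whereas Fgf21 after knockdown runs from 2.502 to 17.0 TPM.

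Knockdown was set against control first. A gene passed the fold threshold when its log2 fold change, on the log2(TPM + 1) scale, lay beyond 0.5 with P under 0.05 in limma, and passed the adjusted threshold at a Benjamini-Hochberg adjusted p under 0.05 over all 16378 genes. Of the 7 members, 2 passed the fold threshold upwards (Acat1 and Pdk4) and 0 downwards, against 5.35% of all tested genes upwards and 2.3% downwards. Acat1 alone passed the adjusted threshold, which 3.23% of all genes passed. The median change of the members was 0.35 beside 0.09 over all tested genes, and 6 of the 7 were higher on average, as were 65.5% of all tested genes. Only Bdh1 had 4 knockdown mice apart from the 4 controls, a pattern found in 8.99% of all genes.

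Against the knockdown, the rescue moved no member past either threshold, where 2.33% of all genes passed the fold threshold upwards, 0.672% downwards and 0.0% the adjusted one. The adjusted count is 0 in limma, with 1757 genes at an unadjusted P under 0.05. No member had rescue and knockdown mice apart, against 6.38% of all genes. Against the controls, with which both other comparisons share mice, 1 rescue member (Acat1) passed the fold threshold upwards and 0 downwards, where 6.84% and 0.641% of all genes did. Acat1 also passed the adjusted threshold, as 2.15% of genes did, and it was the only member whose rescue mice lay apart from the controls, a pattern seen in 22.3% of genes. Values are shifted upwards as a whole in each comparison, most in this last one: the median of all tested genes was 0.17, and the members' median of 0.28 is to be read against it. Between rescue and knockdown the members' median was 0.04 beside 0.09 over all tested genes.

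**Figure D2:**
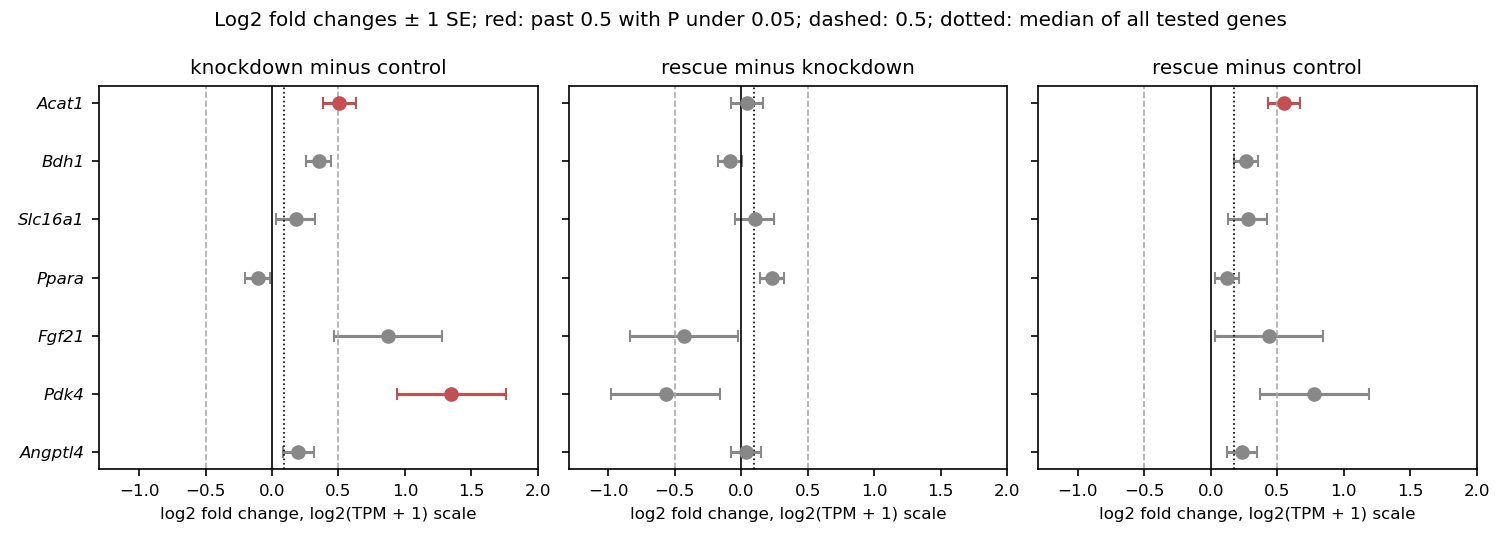
Log2 fold change of each member on the log2(TPM + 1) scale (x axis) with bars of 1 SE, for the 3 comparisons side by side. Red marks members past 0.5 with P under 0.05, dashed lines mark 0.5 in either direction and the dotted line marks the median of all tested genes. Acat1 and Pdk4 are red after knockdown, Acat1 alone in rescue against control, and the widest bars belong to Fgf21 and Pdk4.

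Among the ketone enzymes, Acat1, the mitochondrial acetoacetyl-CoA thiolase, was higher in both groups that received sh-mGULL. The gene (ENSMUSG00000032047.5) lies at chr9:53580522-53610350 in GRCm38.p6. Its control mice held 299.9, 223, 220.4 and 233 TPM, its knockdown mice 344, 403, 299.6 and 339 TPM, and its rescue mice 394, 383, 307 and 343 TPM. One control mouse stood well above the other three and just reached the lowest knockdown mouse, so that these groups met at a single pair of mice, while every rescue mouse exceeded every control. Acat1 was 1.42-fold higher in mean TPM after knockdown, a log2 fold change of 0.51 ± 0.12 (SE, n = 4 per group, limma adjusted p = 0.0451), and 1.46-fold higher in the rescue than in the controls (0.55 ± 0.12, limma adjusted p = 0.0445). Exact two-sided permutation of the 4 against 4 mice gave p = 0.0571 after knockdown and 0.0286 in rescue against control. Both were 0.15 when adjusted over the 21 member comparisons. Rescue and knockdown differed by 0.04 ± 0.12, which turned to -0.05 under median-of-ratios scaling. The size of both increases sits at the threshold: against the median of all genes they were 0.42 and 0.38, and median-of-ratios scaling put them at 0.40 (limma adjusted p = 0.0370) and 0.35 (0.144). Leaving out any 1 mouse other than control replicate 1 or knockdown replicate 3 raised the adjusted p after knockdown above 0.05 (to at most 0.128, without control replicate 3), and without control replicates 2, 3 or 4 or knockdown replicate 2 the change was between 0.43 and 0.49. In rescue against control, the adjusted p was above 0.05 without any 1 rescue mouse, control replicate 2, 3 or 4, or knockdown replicate 4 (at most 0.157).

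Bdh1, the β-hydroxybutyrate dehydrogenase that carries out the last step of ketogenesis, moved less. Bdh1 (ENSMUSG00000046598.15, chr16:31422297-31458901) was at 140.0, 128, 113.5 and 114 TPM in the control livers, at 153, 165, 149 and 164 TPM after knockdown and at 167, 154, 143 and 132 TPM in the rescue. All knockdown mice exceeded all control mice, and the rescue mice overlapped both groups. The knockdown level was 27.4% higher than the control level, a log2 fold change of 0.35 ± 0.09 (limma adjusted p = 0.0565), which met neither threshold. Exact permutation of the 4 against 4 mice, two-sided, gave p = 0.0286, the smallest this design allows, and 0.15 when adjusted over the 21 member comparisons. Leaving out control replicate 1 (0.41, limma adjusted p = 0.0278) or knockdown replicate 3 (0.38, 0.0486) brought Bdh1 past the adjusted threshold. So did a filter at a mean of 5 TPM and weighting the mice by how well they fitted the model, 4 of 22 alternatives in all. In rescue against control it passed under 1 of the 22. Rescue minus knockdown was -0.09 ± 0.09 (limma adjusted p = 0.727) and rescue minus control was 0.27 ± 0.09 (0.111), of which 0.09 remained above the median of all genes. A lncRNA gene, Gm15743, overlaps Bdh1 and averaged 0.0281 TPM.

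The other genes of ketone body synthesis and use gave the following picture. This and the later list counts are to be read beside the shares of all tested genes given above for each comparison. Oxct1, the enzyme of ketone use that hepatocytes largely lack, was low at 7.87 ± 2.71 TPM in the controls and changed by 0.23 ± 0.24 after knockdown (limma adjusted p = 0.645). Of the 7 tested genes of this list that are not members, 2 rose after knockdown and 0 fell, and both of those that rose are cytosolic. Acat2, the cytosolic thiolase, rose from 26.9 ± 3.74 to 44.0 ± 9.94 TPM (0.67 ± 0.16, limma adjusted p = 0.0422), and Aacs, which activates acetoacetate for lipid synthesis, went from 54.1 ± 27.7 to 99.7 ± 16.6 TPM (0.97 ± 0.25, limma adjusted p = 0.0531). Aacs was also past the fold threshold in rescue against control (0.79 ± 0.25, limma adjusted p = 0.0915), as 1 of the 7, and none of the 7 passed it between rescue and knockdown. The list median was 0.21 after knockdown and 0.28 in rescue against control, beside 0.09 and 0.17 over all genes.

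Slc16a1 encodes MCT1, a proton-linked carrier of lactate, pyruvate and ketone bodies. Slc16a1 (ENSMUSG00000032902.1, chr3:104638664-104658462) held 38.9, 27.4, 32.1 and 33.8 TPM in the control mice, 40.0, 48.3, 33.9 and 29.2 TPM in the knockdown mice and 45.0, 41.6, 35.4 and 38.6 TPM in the rescue mice. The 3 groups overlapped throughout, and the knockdown mice held both the highest and close to the lowest values. Its changes were 0.18 ± 0.15 after knockdown (limma adjusted p = 0.542), 0.10 ± 0.15 between rescue and knockdown (0.805) and 0.28 ± 0.15 between rescue and control (0.249). Bsg, the chaperone basigin that brings MCT1 to the plasma membrane, was at 419 ± 48.1 TPM in the controls and changed by 0.13 ± 0.09 after knockdown (limma adjusted p = 0.474). Of the 9 other tested transporters and chaperones, 2 passed the fold threshold upwards after knockdown. Slc16a7, which encodes MCT2, rose from 23.0 ± 5.15 to 34.8 ± 9.22 TPM (0.57 ± 0.19, limma adjusted p = 0.109), and Slc16a11 rose from 8.83 ± 0.68 to 13.6 ± 3.07 TPM (0.55 ± 0.16, 0.0754). In rescue against control Slc16a7 (0.69 ± 0.19, 0.0658) and Slc16a6 (0.63 ± 0.22, 0.114) passed it, and none did between rescue and knockdown. After median-of-ratios scaling 0 of these transporters passed the fold threshold in either comparison with the controls. Under quantile scaling 0 passed it after knockdown and 1 in rescue against control, where Slc16a6 was at 0.44. After knockdown 1 passed it without control replicate 2 or knockdown replicate 1 or 2, as in rescue against control without rescue replicate 2. Between rescue and knockdown Slc16a11 passed downwards under median-of-ratios (-0.53) and quantile (-0.54) scaling, without the 20 highest genes (-0.52), and without knockdown replicate 2 (-0.50) or rescue replicate 1 (-0.56).

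Ppara passed neither the fold nor the adjusted threshold in any comparison. Ppara (ENSMUSG00000022383.13, chr15:85734910-85806851) held 206, 201, 228 and 214 TPM in the controls, 170, 183, 227 and 212 TPM after knockdown and 233, 219, 242 and 229.9 TPM in the rescue. Knockdown replicates 1 and 2 lay below all controls and the others among them, and only 1 rescue mouse lay below a knockdown mouse. The change was -0.11 ± 0.09 after knockdown (limma adjusted p = 0.554), 0.23 ± 0.09 between rescue and knockdown (0.421) and 0.12 ± 0.09 between rescue and control (0.413), the last of which turned to -0.08 under median-of-ratios scaling. Its partner Rxra followed a like course at 274 ± 29.3, 247 ± 22.4 and 290.0 ± 12.3 TPM in the control, knockdown and rescue groups, with changes of -0.15 ± 0.09, 0.24 ± 0.09 and 0.09 ± 0.09 and limma adjusted p of 0.400, 0.417 and 0.545. The coactivator Ppargc1a, at 10.8 ± 2.34 TPM in the controls, changed by -0.06 ± 0.14 after knockdown, and Creb3l3, a fasting-induced factor of the ER membrane that works with PPARα on Fgf21, by 0.04 ± 0.09 from 369 ± 17.4 TPM. Of the 19 partners and regulators tested beside Ppara, only Pparg, the lipogenic PPAR isotype, passed the fold threshold, going from 16.1 ± 7.06 to 23.1 ± 4.93 TPM after knockdown (0.57 ± 0.25, limma adjusted p = 0.220) and to 24.6 ± 2.16 TPM in the rescue (0.68 ± 0.25 against control, 0.127). Pparg no longer passed under median-of-ratios or quantile scaling or without control replicate 2 in both comparisons, nor after knockdown with the replicate block, with only the 2 groups compared, or without control replicate 3 or knockdown replicate 2, 3 or 4.

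Genes regarded as PPARα targets were then counted. The list was chosen with earlier results of these data known. Of 48 tested targets other than the members, 13 passed the fold threshold upwards and 1 downwards after knockdown, and the median change was 0.31 beside 0.09 over all genes. Over all tested genes 5.35% passed upwards and 2.3% downwards after knockdown. Between rescue and knockdown 2.33% and 0.672% of all genes did, and in rescue against control 6.84% and 0.641%. The highest were Cyp4a14, a microsomal fatty acid ω-hydroxylase, from 209 ± 151 to 731 ± 462 TPM (1.83 ± 0.45, limma adjusted p = 0.0451), and Acot3, a peroxisomal acyl-CoA thioesterase, from 9.87 ± 2.48 to 34.0 ± 10.7 TPM (1.67 ± 0.32, 0.0194). Cyp4a32 was the gene that fell, from 86.0 ± 34.1 to 54.1 ± 11.9 TPM (-0.60 ± 0.27, 0.237). Between rescue and knockdown 0 of the 48 passed upwards and 2 downwards, Cyp4a14 to 306 ± 90.5 TPM (-1.11 ± 0.45, limma adjusted p = 0.421) and the peroxisomal thiolase gene Acaa1b from 2270 ± 644 to 1484 ± 139 TPM (-0.58 ± 0.16, 0.318). In rescue against control 7 passed upwards and 0 downwards, led by Cd36, a fatty acid transporter, at 66.2 ± 28.6 and 184 ± 49.1 TPM (1.53 ± 0.39, 0.0548), and Acot2, a mitochondrial thioesterase, at 11.9 ± 2.88 and 25.8 ± 4.01 TPM (1.07 ± 0.30, 0.0707). Of the 48, the count that rose after knockdown ran from 9 under median-of-ratios scaling to 16 without control replicate 1 or knockdown replicate 3. The count that fell after knockdown was 0 without a filter, with only the 2 groups compared, with no trend or with array weights. It was also 0 without control replicate 3 or 4 or knockdown replicate 1, 2 or 3. The count that fell between rescue and knockdown was 0 without knockdown replicate 1, 1 without knockdown replicate 2 or rescue replicate 2 or 3, and 4 without knockdown replicate 4. The count that rose in rescue against control was 4 without control replicate 2 and 3 under median-of-ratios scaling. Below the fold threshold, Hadha, a subunit of the mitochondrial trifunctional protein of β-oxidation (0.42 ± 0.10, limma adjusted p = 0.0380), and Mgll, the monoacylglycerol lipase (0.50 ± 0.12, 0.0445), passed the adjusted threshold after knockdown, and both lost it when most single mice were left out, as did Mgll under the 3 other scalings. Cpt1a, which admits long-chain fatty acids to the mitochondrion, passed no threshold and was at 303 ± 23.5 TPM in the controls, 238 ± 30.2 TPM after knockdown and 295 ± 5.56 TPM in the rescue, with changes of -0.35 ± 0.09 (limma adjusted p = 0.0582) and 0.32 ± 0.09 (0.358) in turn. Cyp4a and Acot genes have near-identical paralogs between which the counting may have divided reads, so the single-gene values carry that uncertainty.

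**Figure D3:**
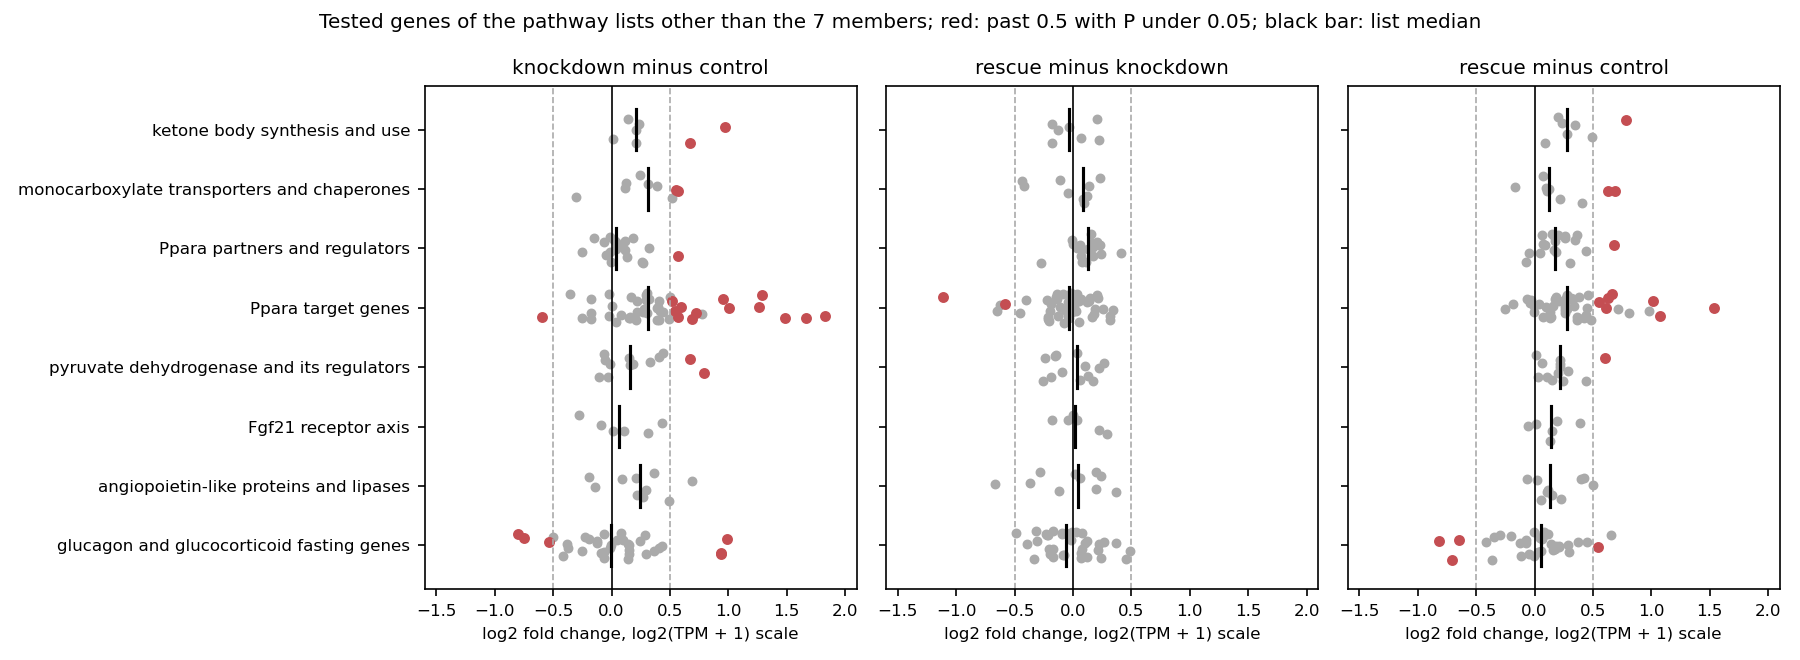
Log2 fold change on the log2(TPM + 1) scale (x axis) of each tested gene of the 8 pathway lists (rows), the members left out, in the 3 comparisons. Red points lie past 0.5 in either direction with P under 0.05 and black bars are list medians, and 13 PPARα targets are red to the right after knockdown while 0 are in rescue against knockdown.

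Fgf21, the fasting hepatokine, varied widely between mice. Fgf21 (ENSMUSG00000030827.5, chr7:45613890-45615490) was at 6.50, 3.07, 3.57 and 5.75 TPM in the control mice, at 12.9, 17.0, 11.2 and 2.502 TPM in the knockdown mice and at 7.70, 6.70, 5.15 and 6.74 TPM in the rescue mice. Knockdown replicates 1 to 3 exceeded every control and every rescue mouse, whereas knockdown replicate 4 was the lowest of all 12. The mean TPM was 2.30-fold that of the controls, but the log2 fold change of 0.87 ± 0.41 missed the P limit of the fold threshold and the adjusted one (limma adjusted p = 0.252), as did rescue minus knockdown at -0.43 ± 0.41 (0.693) and rescue minus control at 0.44 ± 0.41 (0.508). Without knockdown replicate 4, Fgf21 was 1.38 ± 0.22 higher after knockdown (limma adjusted p = 0.0152) and passed the fold threshold downwards in rescue minus knockdown at -0.945 ± 0.22 (0.268), and without control replicate 1 it passed the fold threshold after knockdown at 1.02. With the mice weighted by how well they fitted the model, which gave knockdown replicate 4 the highest weight in its group, the change after knockdown was 0.29 and that between rescue and knockdown 0.05.

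In the liver the partners of Fgf21 are the coreceptor β-Klotho, encoded by Klb, and the FGF receptors. Klb was at 25.2 ± 5.09, 25.2 ± 2.68 and 25.3 ± 4.29 TPM in the control, knockdown and rescue groups, and its change after knockdown was 0.01 ± 0.14 (limma adjusted p = 0.972). Fgfr4, the main FGF receptor of hepatocytes, was at 31.6 ± 4.0, 39.5 ± 4.42 and 34.8 ± 3.40 TPM, a change after knockdown of 0.31 ± 0.11 (0.126). Of the 6 tested genes of this axis other than Fgf21, 0 passed the fold threshold in any of the 3 comparisons, though Fgfr3 did after knockdown without control replicate 1 or knockdown replicate 3 (both 0.52).

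Pdk4, the pyruvate dehydrogenase kinase that rises with fatty acid supply, changed most among the members. Pdk4 (ENSMUSG00000019577.6, chr6:5483351-5496278) held 7.94, 3.02, 5.83 and 9.100 TPM in the controls, 23.2, 35.2, 9.099 and 10.8 TPM after knockdown and 8.72, 10.7, 8.37 and 19.1 TPM in the rescue. Knockdown replicates 1 and 2 stood far above all controls, replicate 4 somewhat above them and replicate 3 level with the highest control, and rescue replicates 2 and 4 lay above all controls. Its mean was 3.03-fold higher after knockdown and its log2 fold change 1.35 ± 0.41 (limma adjusted p = 0.0884). The exact permutation p after knockdown was 0.0571, and 0.15 when adjusted over the 21 member comparisons. Rescue minus knockdown was -0.57 ± 0.41 (0.616) and rescue minus control 0.78 ± 0.41 (0.251). The fold threshold was met after knockdown under all 22 alternatives, with changes from 0.90 to 1.63, and the adjusted threshold under 1 of them, without knockdown replicate 3 (1.63, limma adjusted p = 0.0401). In rescue against control Pdk4 passed the fold threshold without knockdown replicate 2 (limma adjusted p = 0.174), where only the pooled spread had changed.

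The other kinases differed from Pdk4 in level and in course. Pdk1 was at 29.0 ± 0.95 TPM in the controls and 47.2 ± 5.96 TPM after knockdown (0.68 ± 0.10, limma adjusted p = 0.0075), with 39.8 ± 3.57 TPM in the rescue (0.44 ± 0.10 against control, 0.0426). Pdk2, the most abundant kinase of the family here, was at 108 ± 6.55 and 106 ± 17.1 TPM (-0.03 ± 0.10, 0.915), and Pdk3 at 1.70 ± 0.32 and 1.66 ± 0.78 TPM (-0.07 ± 0.22, 0.901). Of the 13 tested genes of the complex and its regulators other than Pdk4, 2 rose after knockdown and 0 fell. Beside Pdk1 this was Pdhb, a subunit of the E1 enzyme which these kinases inhibit, at 82.8 ± 13.0 and 146 ± 34.0 TPM (0.79 ± 0.16, limma adjusted p = 0.0241), and it was also the 1 gene of the list past the fold threshold in rescue against control (0.60 ± 0.16, 0.0637). Under median-of-ratios or quantile scaling 0 of the 13 passed in rescue against control, while 2 still rose after knockdown.

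Angptl4, an inhibitor of lipoprotein lipase, did not pass a threshold. Angptl4 (ENSMUSG00000002289.16, chr17:33774900-33781575) held 138, 138, 149.9 and 164 TPM in the controls, 199, 184, 137 and 163 TPM after knockdown and 156, 171, 181 and 188 TPM in the rescue. The knockdown group held both the highest and the lowest mouse of the series, and the rescue group overlapped the controls at its lower end. The changes were 0.20 ± 0.11 after knockdown (limma adjusted p = 0.350), 0.04 ± 0.11 between rescue and knockdown (0.915), which was -0.06 under median-of-ratios scaling, and 0.24 ± 0.11 between rescue and control (0.210). Angptl8, a feeding-induced member of the family, was at 27.8 ± 9.12, 48.6 ± 23.7 and 27.0 ± 1.38 TPM in the control, knockdown and rescue groups, with 0.69 ± 0.35 after knockdown (limma adjusted p = 0.290) and -0.67 ± 0.35 between rescue and knockdown (0.510), and Lpl, the lipase itself, changed by -0.14 ± 0.28 from 21.3 ± 7.28 TPM. Of the 10 tested genes of this list other than Angptl4, 0 passed the fold threshold in each comparison. Angptl8, like Fgf21, turned on knockdown replicate 4, without which it passed at 1.07 after knockdown (limma adjusted p = 0.0550) and at -1.05 between rescue and knockdown (0.280).

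Genes of the glucagon and glucocorticoid arm of fasting were read alongside. Of 35 tested, 3 rose and 3 fell after knockdown, with a median of -0.00 beside 0.09 over all genes. G6pc, the glucose-6-phosphatase subunit, rose from 505 ± 52.8 to 970.1 ± 151 TPM (0.93 ± 0.12, limma adjusted p = 0.0061), and the metallothioneins Mt1 (0.94 ± 0.28, 0.0809) and Mt2 (0.99 ± 0.32, 0.106) were the others. The genes that fell were Tat, a tyrosine aminotransferase induced by glucocorticoids, from 2680 ± 738 to 1564 ± 502 TPM (-0.80 ± 0.28, limma adjusted p = 0.131), Pck1, the cytosolic PEP carboxykinase, from 3917 ± 772 to 2355 ± 656 TPM (-0.75 ± 0.23, 0.0950), and the serine dehydratase gene Sds (-0.54 ± 0.17, 0.0966). Crem, an inducible regulator of cAMP-responsive genes, was just short of the fold threshold but was the only one to fall past the adjusted threshold, from 8.69 ± 0.79 to 5.87 ± 0.62 TPM (-0.50 ± 0.10, limma adjusted p = 0.0227), with all knockdown mice below all controls. In the rescue Crem was at 8.63 ± 0.38 TPM, all mice above the knockdown mice (0.49 ± 0.10, limma adjusted p = 0.282). Its adjusted p after knockdown was above 0.05 without control replicate 2, 3 or 4 (at most 0.0727) and with only the 2 groups compared (0.113), and under the 3 other scalings Crem also passed the fold threshold. None of the 35 passed the fold threshold between rescue and knockdown, while in rescue against control 1 rose (G6pc, 0.54 ± 0.12, limma adjusted p = 0.0441) and 3 fell (Tat, Sds and Pck1, from -0.82 to -0.65). After knockdown the number that fell was 5 without knockdown replicate 1 and 2 without control replicate 2 or knockdown replicate 3, and the number that rose was 5 without knockdown replicate 4. In rescue against control 0 rose under median-of-ratios scaling, without the 20 highest genes, or without control replicate 3 or rescue replicate 2. In that comparison 5 fell under median-of-ratios scaling, and 3 rose without control replicate 4.

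Whether members varied together among mice of one group was then examined. Within-group deviations were compared for the 21 pairs of members over 12 mice, with exact permutation of mice within groups. Slc16a1 and Fgf21 deviated together (Pearson r = 0.852, exact permutation p = 0.00116, adjusted over the 21 pairs 0.0244, Spearman rho = 0.832, p = 0.000579, adjusted 0.0122), and r was 0.766 over the 10 mice left without the extremes of Slc16a1. Knockdown replicate 4 was lowest in its group for both genes, and knockdown replicate 2 was highest for both. In all, 5 pairs had an unadjusted exact p under 0.05, and the other 4 did not pass the adjustment: Acat1 with Slc16a1 (r = 0.778), Bdh1 with Acat1 (0.737), Pdk4 with Angptl4 (0.733) and Slc16a1 with Pdk4 (0.733). Ppara deviated in the opposite direction to each of the other members, with r from -0.596 for Angptl4 to -0.274 for Bdh1 and no adjusted p under 0.05, and the value for Angptl4 was 0.0205 without the 2 extreme mice. After median-of-ratios scaling Ppara and Acat1 joined as a second pair (r = -0.795, exact p = 0.00326, adjusted 0.0342). They also joined under quantile scaling (r = -0.882, adjusted exact p = 0.00836) and without the 20 highest genes (-0.829, 0.00531). Slc16a1 and Fgf21 had r = 0.897, 0.884 and 0.879 under these scalings in turn. Libraries share their depth and composition across all genes, and beyond these scalings the part of either in these relations was not tested.

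**Figure D4:**
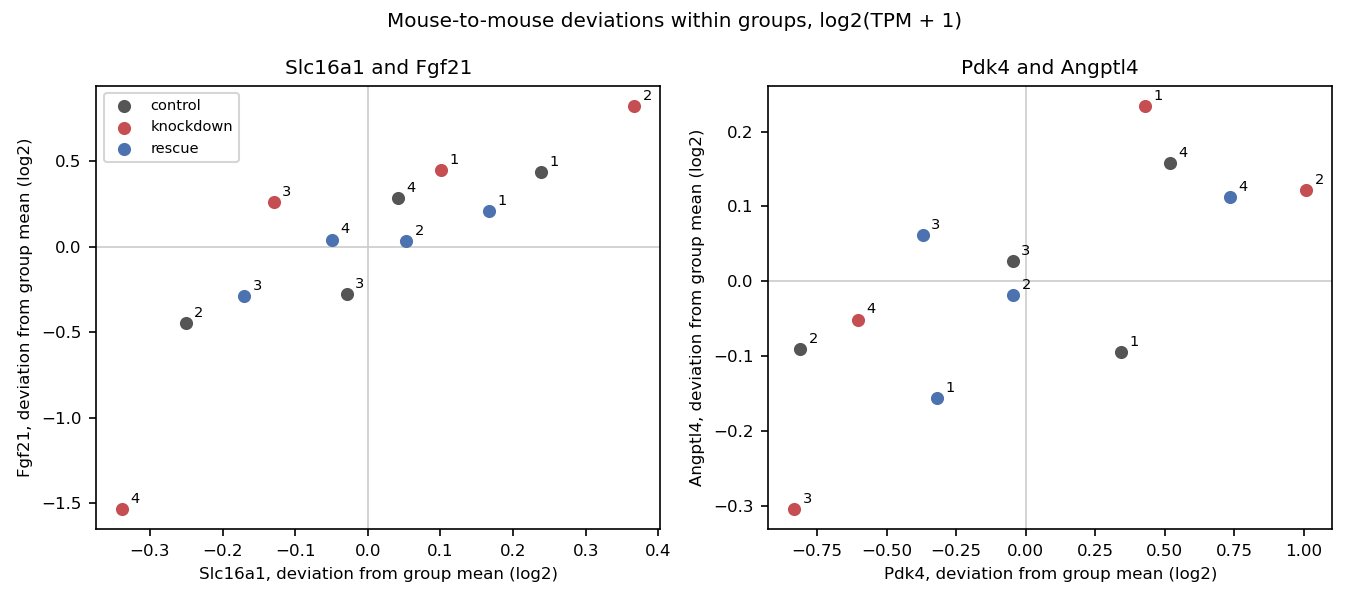
Deviation of each mouse from its group mean on the log2(TPM + 1) scale, for Slc16a1 (x) and Fgf21 (y) on the left and for Pdk4 (x) and Angptl4 (y) on the right, coloured by group and numbered by replicate. The left panel follows a rising line (r = 0.852), with knockdown replicate 4 at its foot, and the right panel is looser (r = 0.733).

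Since Slc16a1 and Fgf21 varied together, the sequence just upstream of both is shown. RefSeq promoter windows in GRCm38.p6 exist here for 5 of the 7 members, and the 250 bases before the start were searched on both strands for 7 short motifs. The windows shown are chr3:104638414-104638663 on the plus strand for Slc16a1 and chr7:45615491-45615740 on the minus strand for Fgf21, written 5′ to 3′ along the gene with matches to the E-box CACGTG and to TGACG, the core of the cAMP response element, in capitals (CGTCA on the opposite strand).
Slc16a1: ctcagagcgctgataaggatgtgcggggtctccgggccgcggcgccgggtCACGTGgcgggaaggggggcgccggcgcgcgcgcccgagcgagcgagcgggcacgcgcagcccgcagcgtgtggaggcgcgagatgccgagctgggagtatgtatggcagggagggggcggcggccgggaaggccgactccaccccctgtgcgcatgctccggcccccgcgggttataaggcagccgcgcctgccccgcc
Fgf21: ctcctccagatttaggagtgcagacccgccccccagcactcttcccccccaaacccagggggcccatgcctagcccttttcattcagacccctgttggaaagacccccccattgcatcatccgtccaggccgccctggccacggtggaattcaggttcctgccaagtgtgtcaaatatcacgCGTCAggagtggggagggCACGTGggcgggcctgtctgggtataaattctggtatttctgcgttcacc

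The E-box begins 200 bases before the start of Slc16a1 and 50 bases before that of Fgf21, where it runs into a GGGCGG box, and it occurs in 6.02% of all 32851 windows. It is in none of the other member windows. TGACG occurs in the windows of Fgf21 and Ppara and in 17.8% of all. The nuclear receptor core site AGGTCA (14% of all windows), its direct repeat with 1 base between (0.0335%) and the forkhead motif TGTTTAC (3.17%) are in none of the member windows, GGGCGG (32.7%) is in those of Fgf21, Ppara and Slc16a1, and CCAAT (33.8%) in that of Pdk4. A match is a run of letters in this window and was not tested as a binding site. Whether the shared E-box bears on how Slc16a1 and Fgf21 varied together was not tested. The windows of Slc16a1 and Ppara are both 76.4% G and C against a median of 52.4% over all windows.

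For each member the tested genes with the most similar profile over the 12 mice were found among the 10947 genes averaging 5 TPM or more, as the smallest root mean square distance between standardised log2 profiles. For Fgf21 these were G0s2, an inhibitor of the triglyceride lipase ATGL (distance 0.437), and the processed pseudogene Gm9385 (0.444). Acat1 had the closest neighbours, Mdh2, the mitochondrial malate dehydrogenase (0.186), and Ap2a2 (0.191), followed by Bdh1 with Erbb4 (0.297) and Larp1b (0.302). Slc16a1 lay nearest to Hnrnpr (0.340) and Ddc (0.352), Ppara to Gpr155 (0.381) and Parn (0.400), Pdk4 to Smarcd1 (0.390) and Chka (0.396), and Angptl4 to Cyp39a1 (0.428) and Sfxn2 (0.430).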

How the data were processed

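Per the submitters' processing notes and the study's methods, the authors trimmed strand-specific reads with fastp 0.23.2, checked them with FastQC 0.11.8, aligned them with HISAT2 2.2.1.0 to GRCm38.p6 and counted them on GENCODE genes with featureCounts (Subread 2.0). The deposited values are TPM per gene. How TPM was derived, and whether counting used strand, are not given in the sources used here.

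Values were analysed as log2(TPM + 1) in limma 3.58.1 (R 4.3.3), for genes averaging 1 TPM or more, in one model of the 3 groups without covariates, with moderated variances that followed a trend in mean level. The code of the fit was checked on simulated data with independent normal noise per gene. Those data held no shift between libraries and no outlying mice, so the check does not bear on either. Replicates are single mice (n = 4), and depth is unknown, so precision rests on their spread. Exact two-sided permutation tests used log2 values. Alternatives changed the pseudocount (0.1), the filter (none, 5 TPM), the scaling (median of ratios, quantile, without the 20 highest genes) or the model (2 groups, no trend, array weights, replicate block), or left out each mouse.

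The members and lists were chosen with earlier results of these data known. Named genes were the members, fixed partners (some of which are not reported here), for each list the 2 highest and 2 lowest passing genes per comparison, and the 2 nearest profiles. Fgfr3, Cfd, Cidea, Crem, Hadha and Mgll were named after their values were seen.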

Additional observations from a re-analysis of the deposited data

Results flagged for a closer look

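In 3 of the 48 groups of 4 mice examined (the members' TPM and the summed TPM of each marker list), 1 mouse stood apart by Dixon's criterion, where the gap to the next mouse over the group's range exceeds the critical value for 4 mice. Chance alone marks about 1 group in 20. Acat1 in control replicate 1 was at 300.0 TPM against 220.0 to 233 TPM in the other controls (0.843). The adipocyte markers summed to 46.2 TPM in knockdown replicate 3 against 4.61 to 5.82 TPM in the other knockdown mice (0.971), from Cfd and Cidea, while Adipoq and Lep were listed at 0 in that mouse. The muscle markers summed to 5.04 TPM in control replicate 1 against 0.372 to 0.741 TPM in the other controls (0.921). Without control replicate 1 Acat1 was 0.61 higher after knockdown (limma adjusted p = 0.0162), and without knockdown replicate 3 it was 0.57 higher (0.0264).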

How the results depend on the processing

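Of 462 values of the members under 22 alternatives, 433 kept their direction and side of the fold threshold, 10 dropped below it, 5 passed it and 14 turned, all 14 from values that passed no threshold. The cause was not tested. Rescue minus knockdown turned for Acat1 to -0.0549, -0.0137 and -0.0241 under median of ratios, quantile normalization and without the 20 highest genes, and ran from -0.0236 to 0.118 without 1 mouse. It turned for Angptl4 to -0.0604, -0.0477 and -0.0298 under the same scalings (-0.0641 to 0.115 without 1 mouse), for Slc16a1 without knockdown replicate 4 (-0.0111 to 0.224 without 1 mouse) and for Fgf21 to 0.0520 with array weights. Rescue minus control turned for Ppara to -0.0790 and -0.00661 under median of ratios and quantile normalization.

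After knockdown, 2 members passed the fold threshold, 1 under each of the 3 scalings and 1 to 3 without 1 mouse. The adjusted threshold was passed by 1, by 0 without a filter, with quantile normalization, with only the groups compared or with no trend, by 2 with a mean of at least 5 TPM or array weights, and by 0 to 3 without 1 mouse. Between rescue and knockdown 0 members passed the fold threshold and 0 to 1 without 1 mouse. In rescue against control 1 passed it, 0 under the 3 scalings, 2 with only the groups compared and 1 to 2 without 1 mouse. The adjusted threshold there was passed by 1, by 0 without a filter, under the 3 scalings, with no trend or with the replicate block, by 2 with array weights, and by 0 to 1 without 1 mouse. The exact test count of 1 in rescue against control became 0 under the 3 scalings, that of 1 after knockdown did not move under them, and the pair count of 1 became 2.

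Same-numbered deviations of the mice correlated at -0.244 to 0.154. The same-numbered mouse was the best match for replicates 2, 3 and 4 in rescue against knockdown, for replicate 4 in rescue against control and for none in knockdown against control. With the replicate block, Acat1 in rescue against control had a limma adjusted p of 0.0529, no other member changed sides of a threshold, and 71 genes passed the adjusted threshold instead of 352.

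Over all genes, 1253 passed the fold threshold after knockdown (876 up, 377 down) and 765 at a mean of at least 5 TPM, with 625 up and 548 down under median of ratios. Rescue minus knockdown gave 492 (382 up, 110 down), 242 at that filter, 246 up and 166 down under median of ratios, and 848 without knockdown replicate 2. Rescue minus control gave 1226 (1121 up, 105 down), 708 at that filter, 723 under median of ratios (486 up, 237 down) and 701 under quantile normalization. The adjusted count after knockdown was 529, 236 without a filter, 33 with only the groups compared, 344 with no trend, and 165 to 1057 without 1 mouse. Between rescue and knockdown it was 0, and 0 to 2 without 1 mouse. In rescue against control it was 352, 9 without a filter, 568 at the stricter filter, 11 under each of the 3 scalings, 1693 with only the groups compared, 35 with no trend, 3184 with array weights and 3 to 1068 without 1 mouse. Sequencing depth is unknown, and Fgf21 and Pdk4 are the lowest members. List counts under the alternatives were added after seeing the data.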
